A study of Mus musculus with 15 samples.

Results

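The neutrophil granule genes S100a8, S100a9, Ngp, Camp, Ltf, Lcn2 and Mmp8, which encode proteins of the granules and cytosol of neutrophils, were followed in whole mouse hearts. Members were the spots whose gene name in the scanner files is one of these symbols and that are not controls, which gave 7 of 27845 gene names and 8 of 41174 probes, since Ltf has 2 probes. The hearts came from C57BL/KLS mice. Heterozygous *db/+* littermates (5 hearts) served as controls, and *db/db* mice, which are homozygous for the mutated leptin receptor gene and become obese and insulin resistant, were left untreated (5 hearts) or received the PPAR-gamma agonist rosiglitazone at 5 mg/kg/day in normal chow (5 hearts). Hearts were taken after 4 months with or without treatment, and the ages are not given in the sources used here. Every heart carried the RNA of all its cell types and of the blood left in it, so that more neutrophils and more granule RNA per neutrophil cannot be told apart in these values. On each array the heart RNA was labelled red and a common mouse reference RNA green, and the log2 ratio is heart over reference. The 7 genes were chosen with their values in these comparisons known, and their group differences are therefore given as a description without a test.

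Neutrophils form their granules in sequence as they mature in the bone marrow. Azurophil granules, with myeloperoxidase and elastase, come first, and specific and gelatinase granules follow. Ltf, Camp, Ngp, Lcn2 and Mmp8 belong to the specific granules, while S100a8 and S100a9 are the most abundant proteins of the cytosol of the cell, where they pair to form calprotectin. Most of these genes are transcribed in marrow precursors more than in the mature cell in blood or tissue. Lcn2 is also made by epithelial and liver cells under inflammatory stimuli. Transcription factors of the C/EBP family drive the specific granule program.

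The arrays had a median heart signal between 166 and 317, and 56.4% to 75.6% of the probes were well above background in the heart channel. A probe was tested if at least 4 arrays of any group of 5 measured its heart signal well above background, which 27593 probes met. The arrays of treated replicates 3 and 4 differed in the heart channel by a spread (median absolute deviation of log2 signals) of 0.14. It was 0.27 to 0.62 for the other pairs within a group. In the reference channel, which held the same RNA throughout, 99 of 105 pairs of arrays differed by at least 0.14. Both arrays were therefore averaged and counted as 1 sample, which leaves 4 treated samples, although the paper describes 15 distinct RNA samples. Slide 1 held 4 *db/+* arrays, slide 2 held 1 *db/+* and 3 untreated arrays, slide 3 held 2 untreated and 2 treated arrays, and slide 4 held 3 treated arrays. All 10 cardiomyocyte markers were well above background on all 15 arrays. No member spot carried an outlier flag or was saturated.

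The probes of the members are 60-mers. Those of 5 members are shown because they are the sequences the values below were read from, with positions in the mm8 (NCBI36) coordinates of the array files. The Camp probe lies in the part of the transcript that codes for the cathelicidin peptide. A span longer than 60 bases means that the probe crosses an intron, as for Ngp (chr9:110266929-110267477) and Lcn2 (chr2:32207526-32207770, minus strand).
S100a8, chr3:90755783-90755842: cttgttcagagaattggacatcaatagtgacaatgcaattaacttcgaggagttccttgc
Ngp: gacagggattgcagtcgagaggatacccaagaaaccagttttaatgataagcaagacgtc
Camp, chr9:109704884-109704943, minus strand: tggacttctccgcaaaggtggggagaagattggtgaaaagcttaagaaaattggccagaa
Ltf, brighter probe, chr9:110885185-110885244: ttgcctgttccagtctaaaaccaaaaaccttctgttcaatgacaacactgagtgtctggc
Lcn2: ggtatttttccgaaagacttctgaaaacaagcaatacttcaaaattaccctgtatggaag

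S100a8 and S100a9, the calprotectin subunits, are neighbours on chromosome 3 with 22595 bases and no other protein-coding gene between them (GRCm38.p6, RefSeq). The heart signal of S100a8 was 355 to 746 in the 5 *db/+* hearts. In untreated *db/db* hearts it was 2581, 2699, 1876, 756 and 1022 in replicates 1 to 5, and in treated hearts 1571, 12697, 797, 879 and 1966. Treated replicate 2 stood 7.33-fold above the mean level of the other treated samples, and untreated replicate 4 and treated replicates 3 and 4 lay close to the highest *db/+* heart. The log2 ratio was -1.44 ± 0.58 (SD, n = 5) in *db/+*, 0.07 ± 0.93 (n = 5) in untreated and 0.54 ± 1.51 (n = 4) in treated hearts. The groups overlapped in all 3 comparisons.

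S100a9 gave the brightest heart signals of the 7 genes, 1549 to 2390 in *db/+* hearts, 9164, 10248, 7738, 2523 and 3954 in untreated hearts and 5409, 34212, 3593, 3644 and 7427 in treated hearts. In signal every *db/db* heart lay above every *db/+* heart, and after scaling between arrays this held for the treated hearts but not for all untreated hearts. The log2 ratios overlapped, with 5.64 ± 0.62 in *db/+* (n = 5), 5.99 ± 0.67 in untreated (n = 5) and 5.94 ± 0.33 in treated hearts (n = 4). The reference channel held the same RNA on every array, yet its S100a9 signal ran from 22.4 to 487, a 21.7-fold range, and moved with the heart channel (Pearson r = 0.88, Spearman rho = 0.83 over 15 arrays, given as a description). The reference signals of S100a8 and Lcn2 spanned 1.79-fold and 1.72-fold. The cause was not tested. For S100a9 the difference in the log2 ratio between untreated and *db/+* hearts was 0.35 ± 0.37 (SE), against 1.48 ± 0.58 in the heart channel alone and 1.25 after normexp background correction and loess.

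**Figure D1:**
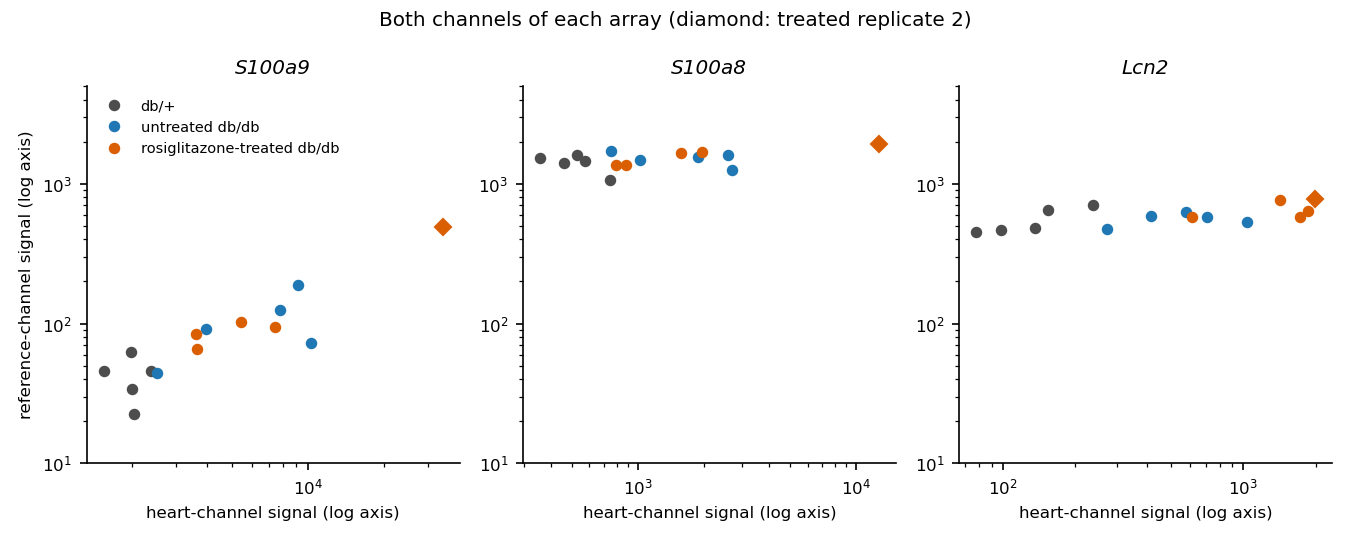
Reference-channel signal (vertical, log axis) against heart-channel signal (horizontal, log axis) of S100a9, S100a8 and Lcn2 on each of the 15 arrays, coloured by group, with treated replicate 2 as a diamond. The reference signal of S100a9 climbed from 22.4 to 487 with its heart signal, while those of S100a8 and Lcn2 stayed within a 1.79-fold and a 1.72-fold range.

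Ngp and Camp, the neutrophilic granule protein and the cathelicidin, were at or near background in most hearts. The heart signal of Ngp was well above background in 1 *db/+* heart (replicate 2, signal 54.0), in 2 untreated hearts (replicates 3 and 5, 30.2 and 26.4) and in 1 treated heart, replicate 2, where it was 485. The other treated arrays were at 8.12 to 18.1. The ratio of Ngp is exactly 0 on 7 arrays on which the scanner software put a surrogate value in both channels, so that its group means, 0.42 ± 1.07, 0.73 ± 1.0 and 1.61 ± 1.78, rest on few measured hearts. Camp was not well above background on any *db/+* array (8.25 to 19.2), was so in untreated replicates 3 and 5 (74.3 and 43.4), and reached 453 in treated replicate 2, against 18.1 to 49.5 on the other treated arrays. Camp is left out of the listed differences against *db/+* hearts and enters only the medians of the last section. The reason is that the mean over either *db/db* group lay below the lowest level that counted as measured on the *db/+* arrays. Neither gene passed the filter, and neither was tested.

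Ltf, which encodes the iron-binding protein lactoferrin, was measured by its brighter probe on 1 *db/+* array, 2 untreated arrays and all 5 treated arrays. The heart signals were 15.3 to 48.2 in *db/+* hearts, 24.4, 34.9, 81.9, 58.1 and 64.3 in untreated hearts, and 99.5, 1711, 97.2, 106 and 103 in treated hearts. Treated replicate 2 again stood apart, at 14.7-fold the mean level of the other treated samples. The remaining treated arrays lay close together, and each exceeded every untreated and every *db/+* array in signal, but after scaling between arrays untreated replicate 3 lay above treated replicates 1, 3 and 5. The log2 ratios were 0.28 ± 0.80 (n = 5), 0.88 ± 1.05 (n = 5) and 2.47 ± 1.30 (n = 4), and those of treated and untreated hearts overlapped. Ltf passed the filter through the treated group alone at this probe. The dimmer probe, which crosses an intron, had ratios of 0.86 ± 1.06, 1.0 ± 0.62 and 2.53 ± 1.20.

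Lcn2, lipocalin 2, which binds bacterial siderophores, followed another order of hearts. Its heart signal was 77.6 to 238 in *db/+* hearts, 272, 413, 1039, 705 and 578 in untreated hearts and 614, 1987, 1723, 1857 and 1415 in treated hearts. Every *db/db* heart exceeded every *db/+* heart. Treated replicate 2 was 1.37-fold the mean level of the other treated samples, in contrast to the 5.25-fold to 29.5-fold of the other 6 members. The log2 ratio was -2.05 ± 0.38 in *db/+* (n = 5), -0.04 ± 0.70 in untreated (n = 5) and 0.97 ± 0.65 in treated hearts (n = 4), and treated replicates 1 and 5, at 0.09 and 0.88, lay within the range of the untreated hearts, -0.82 to 0.97.

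Mmp8, the neutrophil collagenase, was well above background in 1 of 5 *db/+* hearts and in all 10 *db/db* hearts. Its heart signal was 10.1 to 33.6 in *db/+* hearts, 105, 117, 115, 66.8 and 48.2 in untreated hearts and 77.1, 627, 68.3, 72.7 and 128 in treated hearts. The log2 ratios were -1.54 ± 0.59 (n = 5), 1.06 ± 0.49 (n = 5) and 1.34 ± 1.19 (n = 4). Both *db/db* groups were separate from *db/+* and overlapped each other. Mmp8 passed the filter through the *db/db* groups alone. Untreated replicates 1 to 3 had the higher Mmp8 signals of their group, as they had for S100a8 and S100a9. These replicates were on slide 2 and replicates 4 and 5 on slide 3, so that heart and slide cannot be told apart here.

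**Figure D2:**
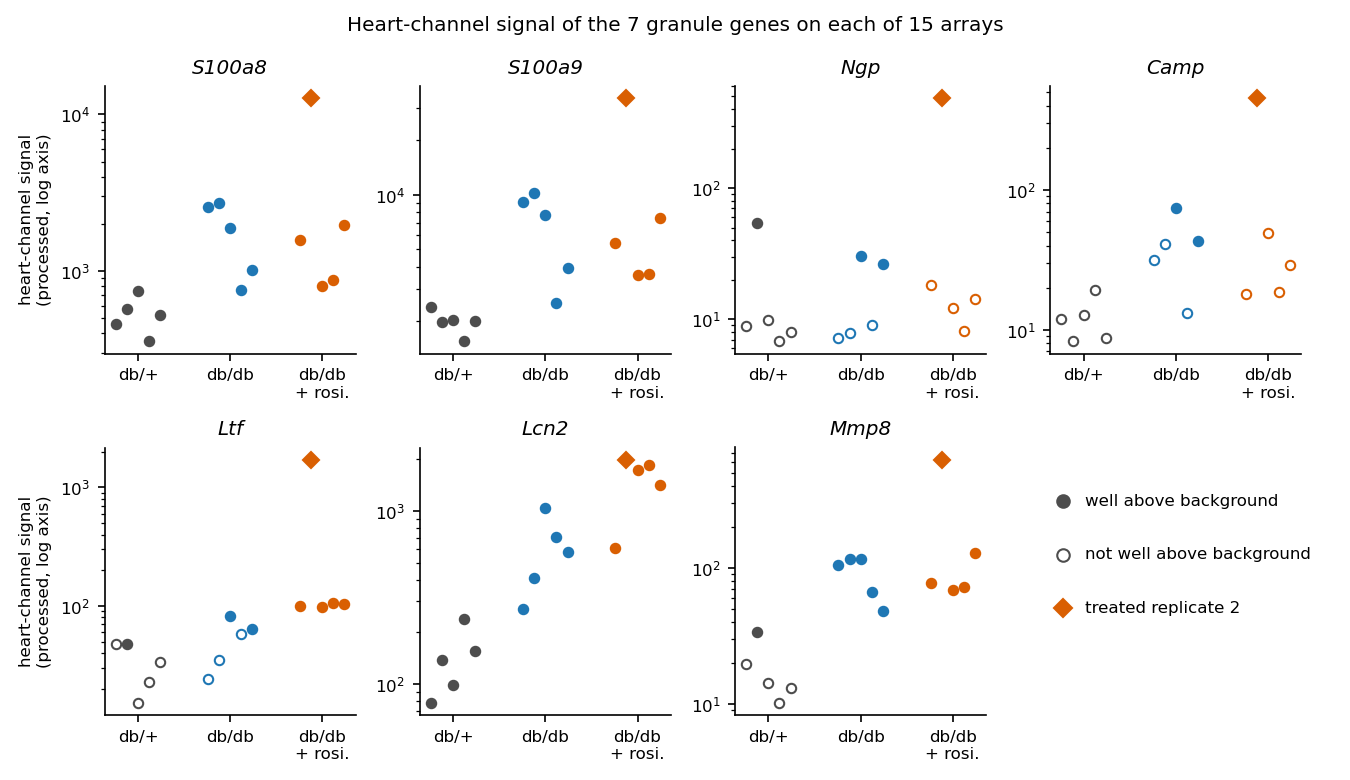
Heart-channel signal (processed, log axis) of the 7 genes on each of the 15 arrays by group, with replicates 1 to 5 from left to right. Open symbols were not well above background, and the diamond is treated replicate 2. In signal, not scaled between arrays, it was the highest of the 15 arrays for all 7 genes. It was far above the rest for all but Lcn2 (1987 against 1857).

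Between untreated *db/db* and *db/+* hearts, the log2 difference was 2.60 ± 0.49 (SE) for Mmp8, which only 1 of 5 *db/+* hearts measured, 2.02 ± 0.37 for Lcn2, 1.51 ± 0.65 for S100a8, 0.60 ± 0.66 for Ltf, 0.35 ± 0.37 for S100a9 and 0.31 ± 0.81 for Ngp. All 6 were positive, as was the dimmer Ltf probe (0.14 ± 0.61), and the median difference over all tested probes was 0.01. After normexp background correction and loess the sizes were 0.49 for Mmp8, 1.06 for Lcn2, 1.21 for S100a8, 0.13 for Ltf, 1.25 for S100a9 and 0.03 for Ngp. The groups did not overlap, with the *db/db* hearts higher, for 2 of the 7 members (Lcn2 and Mmp8), while this held for 4.33% of all tested probes and, in the heart channel alone, for 3.47%. Nothing is read from this count, because the members were chosen on the same values. Over all tested probes, 7.76% passed the limma fit (adjusted p under 0.05), 4.37% as higher, and 6.3% passed in the heart channel alone. Within slide 2, which held untreated replicates 1 to 3 and *db/+* replicate 5, the log2 differences were 2.76 for Mmp8, 1.94 for Lcn2, 2.30 for S100a8, 0.39 for Ltf, 0.34 for S100a9 and 0.67 for Ngp. The dimmer Ltf probe had the opposite sign there, at -0.67, but was at 0.45 in the heart channel alone.

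Between treated and untreated *db/db* hearts the sign depended on 1 heart for S100a8, Camp and Mmp8. The log2 differences were 1.58 ± 0.70 for Ltf, 1.0 ± 0.39 for Lcn2, 0.95 ± 1.05 for Camp, 0.89 ± 0.86 for Ngp, 0.47 ± 0.69 for S100a8, 0.28 ± 0.52 for Mmp8 and -0.05 ± 0.39 for S100a9, with a median of 0.89, the value of Ngp, against -0.01 over all tested probes. Without treated replicate 2 they were 0.95 for Ltf, 0.88 for Lcn2, -0.25 for Camp, 0.01 for Ngp, -0.25 for S100a8, -0.30 for Mmp8 and -0.11 for S100a9, and the median was -0.11. At the dimmer Ltf probe the difference was 1.52, and 1.0 without this heart, but 0.13 without it in the heart channel alone. With slide as a fixed block the differences were 2.18 for S100a8, 1.32 for Mmp8, 2.51 for Camp and 0.63 for Lcn2. These values come from slide 3 alone, the only slide with both groups. They are the mean of treated replicates 1 and 2 against untreated replicates 4 and 5, so that treated replicate 2 weighs more in them than in the main fit. The 2 groups overlapped for all 7 members, and 2.08% of all tested probes were separate with the treated hearts higher (3.86% in the heart channel alone). None of the tested probes passed in the limma fit (0% called, and 0.257% in the heart channel alone), and 2423 probes, 8.78%, had an unadjusted p under 0.05. Within slide 3, treated replicate 1 exceeded the mean of untreated replicates 4 and 5 by a log2 difference of 0.84 for Ltf, 0.78 for S100a8, 0.28 for Ngp, 0.24 for Mmp8, 0.09 for S100a9 and 0.0039 for Lcn2, and differed from it by -0.36 for Camp. Treated replicate 2 exceeded it by 3.22 for Ltf, 3.59 for S100a8, 3.43 for Ngp, 2.41 for Mmp8, 0.51 for S100a9, 1.26 for Lcn2 and 5.37 for Camp.

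Between treated *db/db* and *db/+* hearts the log2 differences were 3.02 ± 0.39 for Lcn2, an 8.11-fold difference, 2.88 ± 0.52 for Mmp8, 2.18 ± 0.70 for Ltf, 1.98 ± 0.69 for S100a8, 1.20 ± 0.86 for Ngp and 0.30 ± 0.39 for S100a9. Without treated replicate 2 they were 2.89 for Lcn2, 2.30 for Mmp8, 1.55 for Ltf, 1.26 for S100a8, 0.32 for Ngp and 0.24 for S100a9. After normexp and loess they were 1.86 for Lcn2, 0.72 for Mmp8, 0.91 for Ltf, 1.69 for S100a8, 0.38 for Ngp and 1.27 for S100a9. Lcn2, Mmp8 and the brighter Ltf probe did not overlap, 3 of 7 members, against 7.61% of all tested probes with the treated hearts higher. The dimmer Ltf probe overlapped, with a difference of 1.66 ± 0.65. In the heart channel alone S100a9 was separate as well, as were 8.73% of all tested probes, and again nothing is read from these counts. Over all tested probes 8.70% passed the limma fit, 4.49% as higher and 4.21% as lower, and 9.57% passed in the heart channel alone. No slide held hearts of both groups, so that there is no within-slide value. With slide as a fixed block, which joins the groups through the untreated hearts, the differences were 4.49 for S100a8, 4.09 for Mmp8, 2.58 for Lcn2, 2.42 for Ltf, 2.52 for Ngp and 0.64 for S100a9. These values rest on 1 *db/+* heart, on slide 2, and on treated replicates 1 and 2, on slide 3. The 3 comparisons share samples and are not independent of each other.

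**Figure D3:**
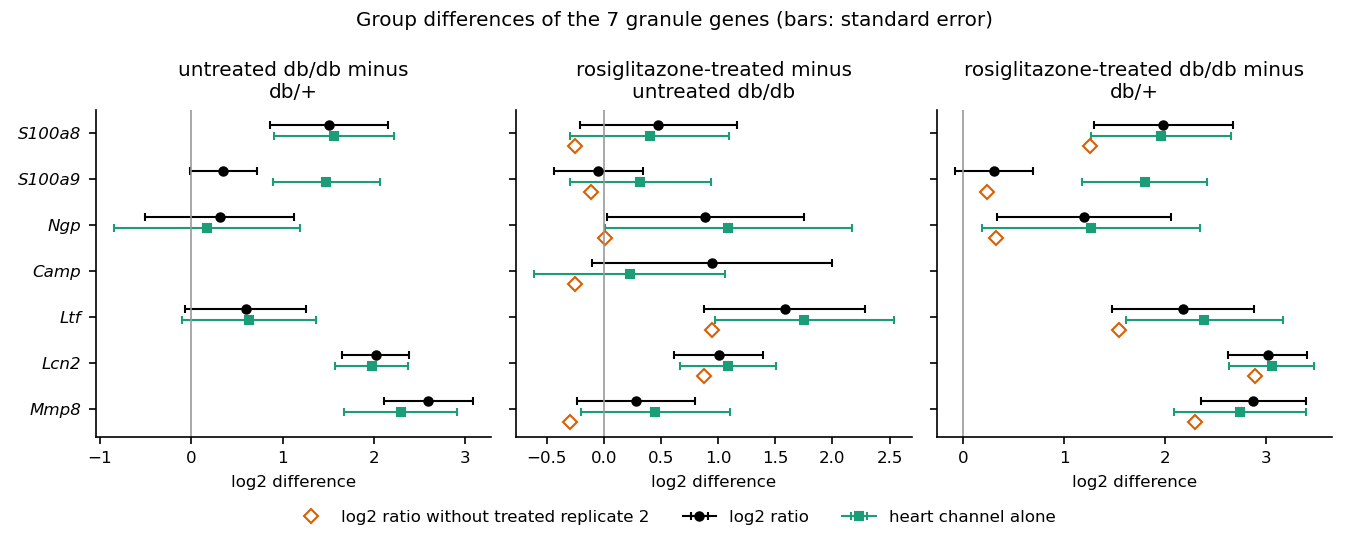
Log2 difference (horizontal) of each gene in the 3 comparisons, from the log2 ratio (black circles) and from the heart channel alone (green squares), with bars for the standard error. Open diamonds leave out treated replicate 2, which takes the median of treated minus untreated hearts from 0.89 to -0.11. Camp is not plotted against *db/+* hearts, none of which measured it. S100a9 is the gene for which ratio and heart channel lie farthest apart, 0.35 against 1.48 in untreated minus *db/+* hearts.

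Correlations between members across the 14 samples are given as a description without a test, since the points share 1 extreme heart and the reference RNA. In the heart channel S100a8 and S100a9 had a Pearson r of 0.97 (0.94 without treated replicate 2), and Mmp8 had 0.88 (0.75) with S100a8 and 0.88 (0.77) with S100a9. On the log2 ratio the same pairs had 0.52 (0.65), 0.84 (0.63) and 0.38 (0.46). Ngp and Ltf had 0.86 (0.57). Lcn2 had -0.13 with S100a8 (-0.39) and 0.03 with Mmp8 (-0.15). The median over the 21 pairs was 0.69, and 0.26 without treated replicate 2. On the log2 ratio the median was 0.52, and 0.18 without that heart.

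**Figure D4:**
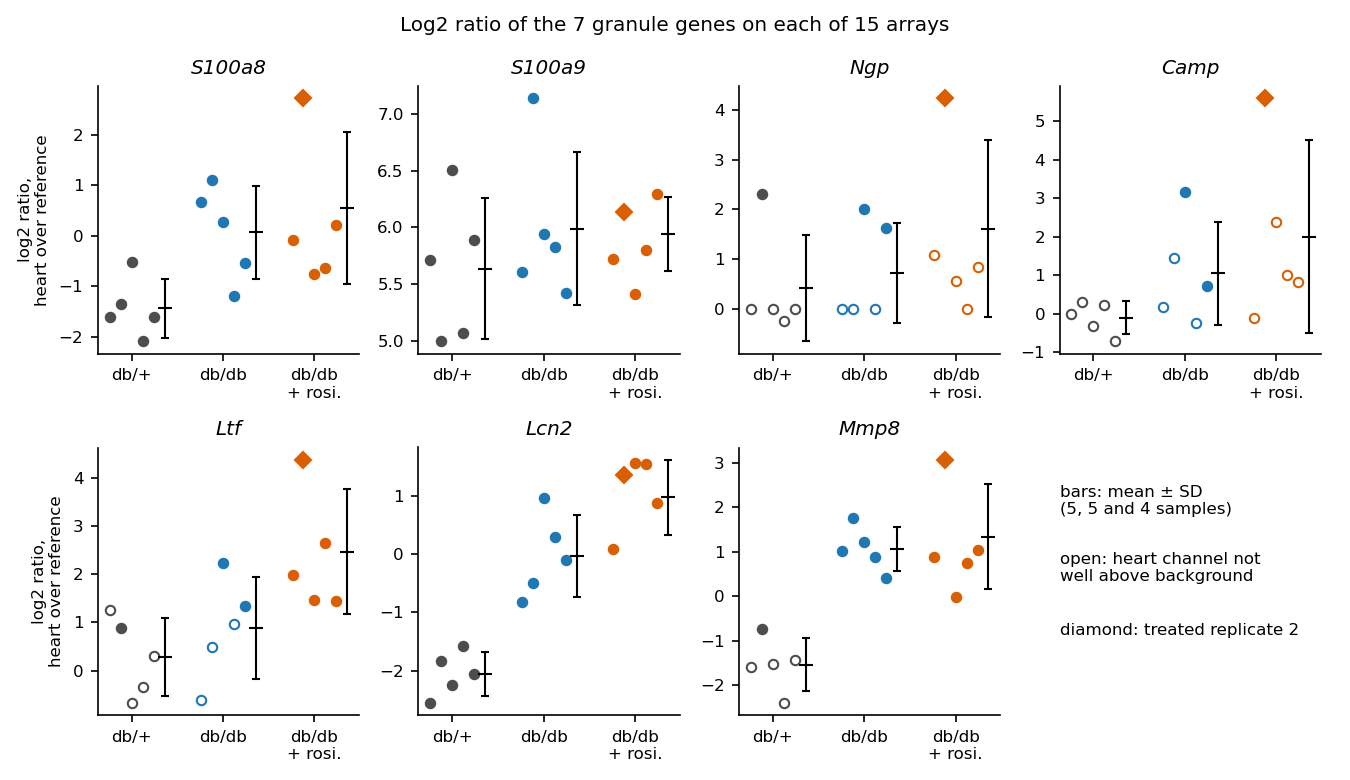
Log2 ratio of heart over reference (vertical) of the 7 genes on each of the 15 arrays by group, with the mean ± SD beside each group (5, 5 and 4 samples). Treated replicate 2 (diamond) lies at 2.73 for S100a8, 4.24 for Ngp, 5.61 for Camp, 4.37 for Ltf and 3.06 for Mmp8, above every other array, but within the other treated hearts for S100a9 and Lcn2.

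Markers of neutrophils themselves were followed beside the granule genes. Of 10 defining neutrophil genes on the array, 7 were tested and none passed in the limma fit in any comparison, while 2, Itgb2l and Stfa2, were not well above background on any array. Their summed heart level lay between 590 and 816 in *db/+* hearts, between 509 and 1697 in untreated hearts and between 751 and 2790 in treated hearts, with treated replicate 2 the highest of the 15. Retnlg, a resistin-like gene of granulocytes, had a signal of 1619 there, against 335 at most on the other arrays. Csf3r, the G-CSF receptor, reached 343 (218 at most elsewhere). Cxcr2, a chemokine receptor, reached 126 (74.3 at most elsewhere). The formyl peptide receptor Fpr1 was not highest in that heart (270 against 395 elsewhere), nor was the activating receptor Trem1 (90.9 against 114). Fpr2 was at 798 there and 731 at most elsewhere, and Cd177 at 110 and 81.0. These signals are not scaled between arrays, and the array of treated replicate 2 had the highest median heart signal, 317. On the log2 ratio 4 of the 7 tested genes were highest there, but Fpr2 was not (4.11 against 5.12 elsewhere). Between untreated and *db/+* hearts, Retnlg had a log2 difference of 1.89 (adjusted p = 0.15), Fpr2 of 1.07 (adjusted p = 0.22) and Fpr1 of 0.99 (adjusted p = 0.23). In the heart channel alone, Cd177 passed in treated against *db/+* hearts (log2 difference 1.07, adjusted p = 0.032). It passed the filter through the treated group alone, being well above background on 2 *db/+*, 1 untreated and 5 treated arrays. Nothing is therefore read from this call. Its log2 ratio did not pass (0.77, adjusted p = 0.34, and 0.35, adjusted p = 0.71, without treated replicate 2).

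In treated replicate 2 the summed level of 12 macrophage and monocyte markers was also the highest of the 15 arrays. It was 445026 against 417217 at most in untreated hearts. Ly6c1 and Lyz2 had the largest unscaled signals of these markers there, 234844 and 216787. On the log2 ratio none of the 12 markers was highest in that heart. The summed level of 6 erythrocyte markers was the lowest there, 599665 against at least 758919 in untreated hearts. The sum of 7 B cell markers was the lowest as well, 1150 against 1207 or more in untreated hearts. Platelet markers ranked 6 of 15. The part of these cells in the granule gene values was not tested.

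Of 9 genes of the earlier, azurophil granules, 6 were tested, and none passed in any comparison in the limma fit. Mpo, myeloperoxidase, had log2 differences of 0.26 (adjusted p = 0.51) in untreated and 0.42 (adjusted p = 0.29) in treated hearts against *db/+*, and Elane, neutrophil elastase, was not well above background on any array. Among 17 further genes of specific, gelatinase and secretory granules, 13 were tested, and 3 rose and none fell in untreated against *db/+* hearts, against 4.37% and 3.39% of all tested probes. The haemoglobin-binding acute phase protein Hp had a log2 difference of 3.58 (adjusted p = 2.8e-04) and the chitinase-like Chil3 of 1.04 (adjusted p = 0.029, and 0.1 in the heart channel alone). The whey acidic protein Wfdc21, which no *db/+* heart measured, was at least 4.95-fold higher in the heart channel (adjusted p = 0.024 on the log2 ratio), the bound being set by the lowest signal that counted as measured on each *db/+* array. In treated hearts Hp (2.66, adjusted p = 0.0033) and Chil3 (1.5, adjusted p = 0.0061) rose and Wfdc21 (adjusted p = 0.059) did not pass. Mmp9, the gelatinase of the same granules, had -0.52 (adjusted p = 0.11) and -0.65 (adjusted p = 0.067), and in treated hearts it passed as lower without treated replicate 2 (-0.85, adjusted p = 0.025) and in the heart channel alone (-0.78, adjusted p = 0.038). Lrg1, of the same list, passed as higher in the heart channel alone, in untreated (1.29, adjusted p = 3.7e-04) and treated hearts (1.70, adjusted p = 4.6e-05). Its log2 ratio did not pass (0.35 in both, adjusted p = 0.2 and 0.22). With slide as a fixed block none of the genes of these or the following lists passed in either comparison with *db/+*.

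Of 7 tested granulocyte transcription factors, Cebpd rose in untreated (log2 difference 1.12, adjusted p = 0.0098) and treated hearts (1.17, adjusted p = 0.0099). Cebpb rose in treated hearts (0.81, adjusted p = 0.012, against 0.46 and an adjusted p of 0.09 in untreated hearts), and the adaptor Lmo2 fell there (-0.69, adjusted p = 0.036), a call that was lost without treated replicate 2 (-0.74, adjusted p = 0.058). Cebpa, the factor of early granulocyte precursors, had differences of 0.14 and 0.05 that did not pass. None of 7 tested neutrophil attractants and cytokines passed in either comparison in the log2 ratio. In the heart channel alone Il1b passed as lower in treated hearts (-0.92, adjusted p = 0.044). Among 8 adhesion genes, Jam3, a junctional adhesion molecule, fell in untreated (-0.68, adjusted p = 0.0012) and treated hearts (-0.63, adjusted p = 0.0029), and Vcam1 fell in treated hearts (-0.60, adjusted p = 0.045, 0.08 without treated replicate 2 and 0.16 in the heart channel alone). None of 11 tested receptors and partners of the members passed.

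Among 13 genes of collagenases, gelatinases, their inhibitors and collagens, the interstitial collagenase Mmp13 fell in untreated (-3.45, adjusted p = 3.8e-04) and treated hearts (-2.95, adjusted p = 0.0017), where the log2 ratio of Mmp8 was higher. Pzp, a proteinase-binding alpha-macroglobulin, rose in untreated hearts (2.63, adjusted p = 0.033). In the heart channel alone the inhibitor Timp4 passed as higher in untreated (1.25, adjusted p = 0.0027) and treated hearts (1.30, adjusted p = 0.0028). The collagen Col3a1 passed there as lower in untreated hearts (-0.84, adjusted p = 0.049). Of 12 tested other S100 genes, S100b fell in treated hearts (-0.75, adjusted p = 0.0077), and none rose. Of 11 tested iron genes, the haem binder Hpx (3.39, adjusted p = 0.044) and the iron exporter Slc40a1 (0.46, adjusted p = 0.032) rose in untreated hearts. Hpx did not pass without treated replicate 2 (adjusted p = 0.054), and in the heart channel alone neither passed (adjusted p = 0.062 and 0.051). Of 10 tested acute phase genes, the serum amyloid Saa2 (3.30, adjusted p = 0.02, measured in 1 of 5 *db/+* hearts) and complement C3 (1.11, adjusted p = 0.014) rose in untreated hearts, and C3 in treated hearts (1.1, adjusted p = 0.018, and 0.058 without treated replicate 2). Hp, Hpx, Saa2 and Pzp are liver products, and the summed level of 7 hepatocyte markers was 1176 to 1979 in *db/+*, 1881 to 166388 in untreated and 2568 to 10152 in treated hearts. Of these markers Apoa2 (2.26, adjusted p = 0.027) and Ahsg (0.96, adjusted p = 0.046) rose in untreated hearts, but Ahsg did not pass without treated replicate 2 (adjusted p = 0.059) or Apoa2 in the heart channel alone (adjusted p = 0.052). The part of liver-type RNA in the acute phase values was not tested.

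Some markers of other cells of blood and tissue fell. Among B cell markers, Cd79b (-1.0, adjusted p = 2.1e-04) and Ms4a1 (-1.94, adjusted p = 2.8e-04) fell in untreated hearts, and both fell in treated hearts (-1.19, adjusted p = 7.2e-05, and -1.79, adjusted p = 6.8e-04), while Cd79a (0.09 and 0.56) did not pass. Of 10 tested T and NK cell markers, Klrd1 fell in untreated (-1.92, adjusted p = 0.01) and treated hearts (-2.61, adjusted p = 0.0025), and Cd3d fell in treated hearts (-1.07, adjusted p = 0.04), while Cd8a (0.31 and -0.23) and Cd4 (0.12 and 0.12) did not pass. Of 6 tested platelet markers, the chemokine Ppbp fell in untreated hearts (-1.73, adjusted p = 0.029), and of 4 tested adipocyte markers Cfd (-3.55, adjusted p = 8.3e-04) and Adipoq (-2.39, adjusted p = 0.01) fell as well. None of 12 macrophage and 4 erythrocyte markers tested passed in the log2 ratio, while in the heart channel alone 2 erythrocyte markers passed as lower and 1 macrophage marker as higher in each of these comparisons.

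The genes most like the members, by Pearson r of the log2 ratio with the mean of the 7 scaled members over 14 samples among 17358 genes, were Serpine2 (0.87), Nrcam (0.86), Slc41a2 (0.85), Csta1 (0.85), Slc22a3 (0.85), Cd300lf (0.85), Vcan (0.83) and Srpx2 (0.83). These values hold the group differences. After centring on the group means the leading genes were Slfn9 (0.86), Ap2s1 (0.83), Lsp1 (0.83), NAP123578-1 (0.79), Abi3bp (0.78), AI854703 (0.77), Ccn3 (0.77) and Serpina3j (0.76). Without treated replicate 2 the r of Slfn9 was 0.40, and that of Serpina3j 0.86. In the heart channel, without centring, Retnlg was among the 8 (0.84).

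The 250 bases before the RefSeq start of each member (GRCm38.p6) were searched on both strands for the C/EBP-type pattern TTNNGNAA, since this family drives the specific granule program. It was found before 6 of the 7 members, all but Camp, and in 36.8% of 32851 such windows. The pattern is loose, and a match is no more than these letters. Windows of 4 genes are printed with the matches in capitals: the neighbours S100a8 and S100a9, Ngp with 3 matches, and Lcn2, whose values followed another order of hearts.
S100a8, chr3:90668821-90669070: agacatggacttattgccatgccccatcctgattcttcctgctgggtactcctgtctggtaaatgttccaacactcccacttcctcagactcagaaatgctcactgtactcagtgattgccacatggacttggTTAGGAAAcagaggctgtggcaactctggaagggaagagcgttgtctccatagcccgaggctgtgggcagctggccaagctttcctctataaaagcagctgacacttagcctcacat
S100a9, chr3:90695722-90695971, minus strand: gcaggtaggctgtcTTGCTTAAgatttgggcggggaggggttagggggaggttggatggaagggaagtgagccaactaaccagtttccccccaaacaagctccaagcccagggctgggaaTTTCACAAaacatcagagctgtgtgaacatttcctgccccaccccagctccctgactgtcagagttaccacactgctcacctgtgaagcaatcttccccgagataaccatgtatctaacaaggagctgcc
Ngp, chr9:110419558-110419807: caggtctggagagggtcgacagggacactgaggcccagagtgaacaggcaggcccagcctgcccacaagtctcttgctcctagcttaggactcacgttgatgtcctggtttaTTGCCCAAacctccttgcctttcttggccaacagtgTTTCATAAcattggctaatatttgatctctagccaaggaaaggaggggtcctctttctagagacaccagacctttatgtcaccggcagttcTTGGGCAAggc
Lcn2, chr2:32387740-32387989, minus strand: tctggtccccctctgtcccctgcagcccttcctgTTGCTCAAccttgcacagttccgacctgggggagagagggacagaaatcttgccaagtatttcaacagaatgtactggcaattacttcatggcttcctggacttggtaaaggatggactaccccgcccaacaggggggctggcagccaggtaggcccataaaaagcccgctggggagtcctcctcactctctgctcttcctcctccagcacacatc
The pattern GAGGAA, of PU.1 type, was found before 4 of the members and in 23.3% of the windows, and the AP-1-type TGANTCA before none and in 6.75%.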

How the data were processed

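RNA of 15 hearts was hybridised, each against a common mouse reference RNA, to Agilent 2-colour 44K arrays without dye swaps. The authors deposited scanner files of Agilent Feature Extraction 9.5.1, whose processed intensity per channel and log10 ratio (red heart over green reference) are background-subtracted and LOWESS-normalized. The deposited series table holds the same log10 ratios and was used as an alternative. Log10 ratios were converted to log2, spots of a probe were averaged, and limma 3.58.1 in R 4.3.3 was fitted to 14 samples and 3 groups, with Benjamini-Hochberg adjustment over 27593 probes (threshold 0.05). limma stood in for the SAM procedure of the study. Levels in the heart channel alone follow Aquantile scaling. The p-values set each group difference against the spread between samples within the groups, and the number of arrays limits their precision. Groups lay largely on different slides, so that the p-values do not separate group from slide.

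The 7 members and all gene lists were chosen with earlier results of these data known. Genes were named by rule: all members, up to 4 genes with the smallest adjusted p per list, the measured neutrophil markers, and the 8 genes most like the members. Mpo, Elane, Mmp9, Lrg1, Il1b, Timp4, Col3a1, Cebpa, Itgb2l, Stfa2, Cxcr2 and the markers of other cells were named after their values were seen. On simulated data, of genes changed by 2-fold between untreated and *db/+* hearts 76% were called, and of those changed by 4-fold 96%, over 25998 probes. Gene names are those of the array files, updated by accession for 23374 probes. Alternatives were another background correction, scaling, filters, slide and replicate blocks, array weights, samples left out and, chosen after seeing the data, the heart channel alone. Sequence windows come from RefSeq (GRCm38.p6). Motifs were searched on both strands and may overlap. Some marker genes are not reported here.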

Additional observations from a re-analysis of the deposited data

Results flagged for a closer look

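In 48 groups of values examined, 5 had 1 value apart from the others by Dixon's criterion, which chance gives in about 5% of independent groups. The groups reuse the same hearts in ratio, heart channel and both Ltf probes, so that this share is no yardstick here. For Ngp only replicate 2 of the *db/+* hearts had no surrogate value in the heart channel, so that it must stand apart. The gap divided by the range was 0.906 for the log2 ratio of Ngp in *db/+* replicate 2 and 0.922 for its heart level. In treated replicate 2 it was 0.837 for the heart level of Ngp, 0.950 for that of Ltf and 0.889 for the dimmer Ltf probe. The reference channel, which should not differ between groups, was higher for S100a9 by a log2 difference of 1.13 on the arrays of untreated and 1.49 on those of treated hearts than on *db/+* arrays.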

How the results depend on the processing

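The median log2 difference of the members was 1.16 and 2.10 against *db/+* hearts. There it is the value of Camp, which no *db/+* heart measured, so that its size is not read as a measured difference. The median kept its sign under all alternatives run except 1, the treated minus untreated difference without treated replicate 2, which was -0.11. Leaving out 1 sample at a time gave 0.63 to 1.48 for untreated minus *db/+*, -0.11 to 1.21 for treated minus untreated and 1.26 to 2.50 for treated minus *db/+*, and the listed genes that passed numbered 13 to 25, 0 to 0 and 14 to 18, with 13 of 20 without untreated replicate 5. With slide as a fixed block the medians were 1.94, 1.85 and 2.58, and 0 listed genes passed in place of 20 in untreated and 17 in treated hearts, while 34, 1 and 4 probes passed over the array in place of 2141, 0 and 2401. These blocked medians rest on the slides that held 2 groups, which had 1 *db/+* heart and treated replicates 1 and 2. With slide as a random block 34 and 29 listed genes passed. A filter on all 15 arrays left 12 in untreated hearts. Normexp with loess gave medians of 0.49, 0.35 and 0.91. The height of treated replicate 2 over the other treated samples, a median of 2.54, was 1.49 with it. The cause was not tested. Fitted on the compared groups alone, 924 probes passed in untreated hearts. Same-numbered samples correlated by -0.19 to 0.05 and share only a number. With the replicate number as a block and treated replicates 3 and 4 separate, the medians were 1.16, 0.62 and 2.04, and 16, 0 and 20 listed genes passed. Filters left the members' values as they were. Signals near background limit Ngp, Camp and, in *db/+* hearts, Mmp8 and Ltf.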
